A study of Mus musculus with 8 samples.

Results

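Microglia are the resident macrophages of the brain, and in mixed glial cultures they grow on top of the astrocyte layer. To purify astrocytes they are shaken off, and the cells still carrying CD11b, the integrin chain encoded by Itgam, are held on magnetic beads and discarded. The genes described here are 10 transcripts of microglia and other macrophages that can remain in such a culture: Itgam, Cd68, Csf1r, Laptm5, C1qa, C1qb, C1qc, Ctss, Mpeg1 and Lyz2. They were taken by symbol from the 54146 genes of the deposited tables and each was found once.

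The libraries were RNA-seq of primary astrocytes from the cortices of C57BL/6 mouse pups aged 2 to 5 days, cultured as mixed glia, infected with lentivirus carrying a short hairpin RNA, selected with puromycin and passed through the CD11b depletion. There were 8 libraries in 4 groups of 2: control KD (a non-silencing hairpin) and GSTM1 KD (a hairpin against Gstm1, a glutathione S-transferase), each unstimulated (basal level) and given TNF-α for 6 h (50 ng/ml). All 4 groups carried a lentiviral hairpin, and all were depleted of CD11b-bearing cells before they were plated for the experiment. The labels number the libraries of a group 1 and 2 and do not say whether a number marks a shared culture, so p-values measure the spread between these libraries. Total expected counts ran from 17349676 to 34434633 a library, and replicate 1 was the deeper library in each of the 4 groups. The targeted gene followed the labels: unstimulated control KD libraries held 8153 and 9644 Gstm1 counts and the matching GSTM1 KD libraries 676 and 626, while with TNF-α the counts were 4851 and 6492 against 527 and 405.

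These genes cover distinct parts of the macrophage. Itgam pairs with Itgb2 to form complement receptor 3. Csf1r is the receptor for the growth factors Csf1 and Il34, on which microglia depend for survival, and Laptm5 is a lysosomal membrane protein of blood-derived and immune cells. C1qa, C1qb and C1qc encode the chains that together make C1q, the recognition unit of the classical complement pathway, which in the brain is made chiefly by microglia. Cd68 is a lysosomal glycoprotein, Ctss a lysosomal cysteine protease, Mpeg1 a pore-forming protein of phagosomes, and Lyz2 the lysozyme of macrophages and granulocytes.

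In the GRCm38 assembly with the GENCODE M21 annotation all 10 are protein-coding genes. The C1q genes lie side by side on the minus strand, C1qb at chr4:136880129-136886187, C1qc at chr4:136889804-136893065 and C1qa at chr4:136895917-136898803, and Laptm5 lies on the same chromosome at chr4:130913125-130936141. Itgam is at chr7:128062640-128118491, Cd68 at chr11:69664213-69666153, Ctss at chr3:95526786-95556403, Mpeg1 at chr19:12460779-12465283 and Lyz2 at chr10:117277331-117282321. Lyz2 has a neighbour of the same family, Lyz1, but shared with it only 24 of its 1217 distinct windows of 100 transcript bases, and Lyz1 itself had 0 to 3 counts in the 8 libraries. Itgam overlaps Gm49368 on the same strand over 3450 of its 5024 exonic bases, so reads from that stretch could be assigned to either gene. Csf1r overlaps Hmgxb3 on the opposite strand over 873 of 5774 exonic bases, and it was the only one of the 10 with expected counts that were not whole numbers; the sources used here do not say if reads were assigned by strand.

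Myeloid genes are commonly controlled by PU.1, the factor encoded by Spi1, which binds purine-rich sites. The promoters of these genes were searched for the letters GAGGAAG on both strands. RefSeq promoters (GRCm38.p6, 250 bases before to 50 after the start) were given for 8 of the 10, not for Csf1r or C1qa. The letters occurred in 4 of those 8, against 13.6% of 32817 promoters. The stretches around each match, 5′ to 3′ on the strand of the gene, with the match in capitals (read as CTTCCTC where it lies on the other strand), were at chr3:95526775-95526801 for Ctss, chr4:130913267-130913293 for Laptm5, chr4:136893092-136893118 for C1qc, and chr7:128062546-128062572 and chr7:128062661-128062687 for Itgam.
Ctss: tgaaagttcaCTTCCTCattgtggatg
Laptm5: cagcctgtggCTTCCTCttttttgttc
C1qc: acggcagacaCTTCCTCattttggcac
Itgam, upstream match: ttttctcccgGAGGAAGgctacagagg
Itgam, downstream match: gccttggtggCTTCCTCaaagtgtctg
The promoters of Cd68, C1qb, Mpeg1 and Lyz2 did not hold these letters in the window searched. Spi1 itself had between 0 and 14 counts a library. Whether PU.1 acts at these sites, or has a part in the levels below, was not tested.

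The genes were rare, except Lyz2 in the control KD libraries. Levels are given as CPM, counts scaled to the library total corrected by a TMM factor, and 3 counts, taken as the floor, correspond to 0.0848 to 0.180 CPM depending on the library. In TPM, a unit that also divides by transcript length, Lyz2 ranged from 4.66 to 109 and Cd68 from 3.99 to 7.75, while Itgam, Csf1r, Laptm5, C1qa, C1qb, C1qc, Ctss and Mpeg1 had at most 4.62 in any of the 8 libraries. Ranked by TPM within a library, Lyz2 stood between place 1657 and place 11103, and the next most abundant, Cd68, between 9850 and 11431. The TPM of Itgam cannot be compared between libraries: its effective length, which depends on the isoforms the counting tool chose, ran from 949 to 4440 bases, so that 61 counts gave 0.66 TPM in one library and 8 counts gave 0.67 TPM in another.

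**Figure D1:**
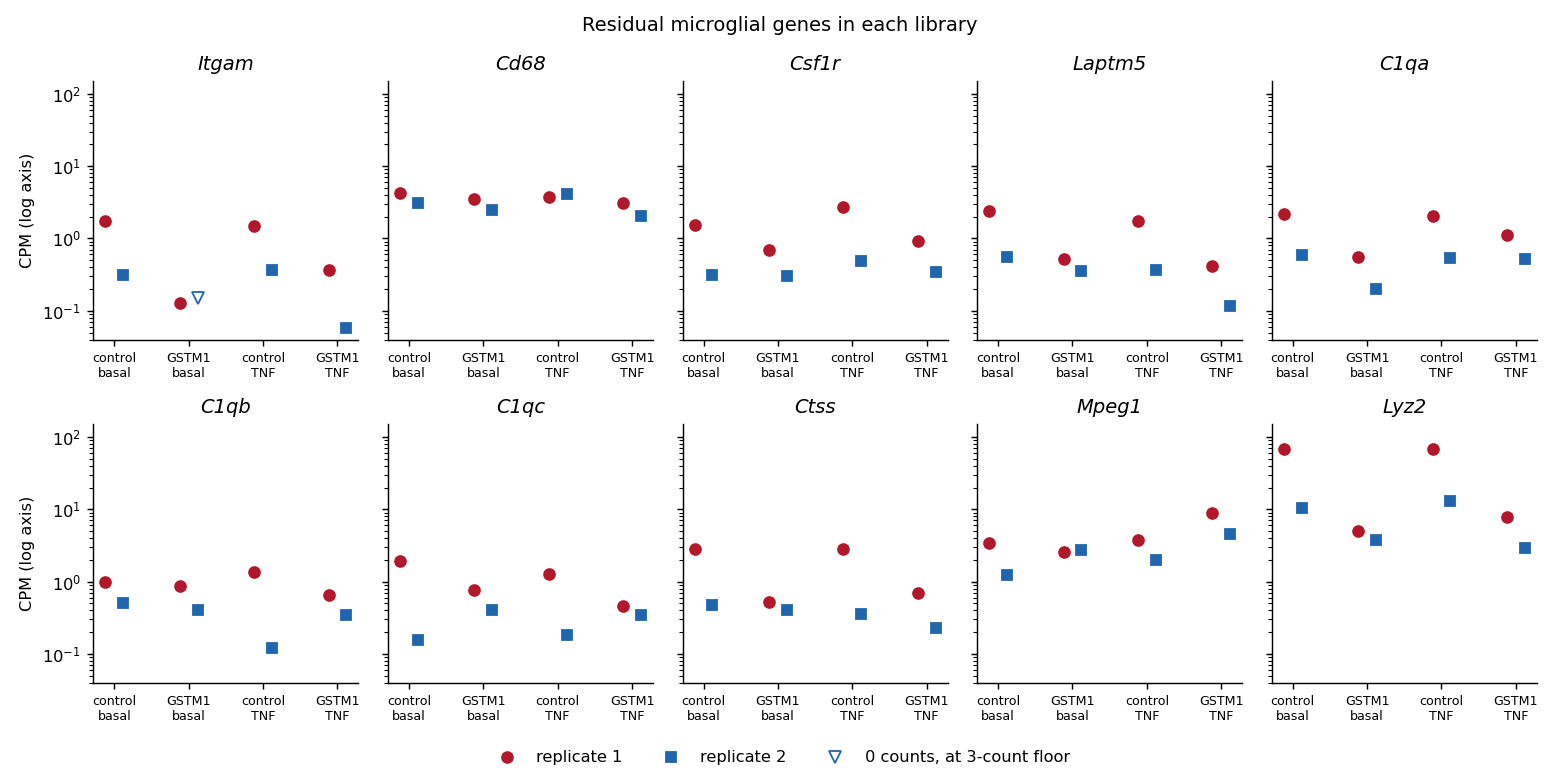
CPM (log axis) of each of the 10 genes in the 8 libraries, by group, with replicate 1 as circles, replicate 2 as squares and a library with 0 counts as an open triangle at its 3-count floor. For 8 of the 10 genes the 2 control KD replicate 1 libraries are the highest of the 8; Cd68 spans a 2.05-fold range, and Mpeg1 is highest in the 2 GSTM1 KD libraries after TNF-α.

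The 2 control KD libraries of a state differed several-fold from each other. The 10 genes together made 90.0 CPM in control KD replicate 1 and 17.7 CPM in control KD replicate 2 at the basal level, a 5.08-fold difference. After TNF-α stimulation they made 90.3 and 21.4 CPM in the same groups, a 4.22-fold difference. The unstimulated GSTM1 KD libraries held 15.01 and 10.96 CPM and the stimulated ones 24.3 and 11.5 CPM, all but 1 of them below the lower control KD library of either state. In TPM, control KD without TNF-α held 134 and 26.8 and GSTM1 KD 23.0 and 16.0. With TNF-α the TPM sums were 134 and 31.7 against 29.0 and 13.7, so that the knockdowns did not overlap in TPM while they did in CPM. The difference in the mean log2 of the summed CPM, GSTM1 KD less control KD, was -1.64 without stimulation and -1.39 with it, and with Lyz2 taken out of the sum it was -0.53 and -0.17. Leaving out control KD replicate 1 gave -0.46 and -0.36, and leaving out replicate 2 gave -2.81 and -2.43. After TNF-α it was -0.85 without GSTM1 KD replicate 2. In bulk RNA, fewer cells of a type and less RNA per cell cannot be told apart.

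Itgam, Csf1r, Laptm5, C1qa, C1qb, C1qc, Ctss and Lyz2 were each higher in both control KD replicate 1 libraries than in any of the other 6 libraries. That is 8 of 10 genes, where 17.7% of the 15332 genes tested across all 8 libraries did the same. A sufficient level in 2 libraries was enough to be tested, so a gene such as Itgam could enter through these 2 libraries alone. Without stimulation, 8 of the 10 were more than 2-fold higher in control KD replicate 1 than in replicate 2 on the log2 CPM scale, against 2.07% of all genes, and their median difference was 2.00 against 0.00 for all genes. After TNF-α the control KD libraries gave 8 of 10 against 2.75%, with a median of 2.16. In GSTM1 KD the same comparison gave 2 of 10 (1.54% of all genes) with a median of 0.65 unstimulated, and 5 of 10 (1.96%) with a median of 1.11 after TNF-α. These medians describe pairs of libraries and carry no test.

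**Figure D2:**
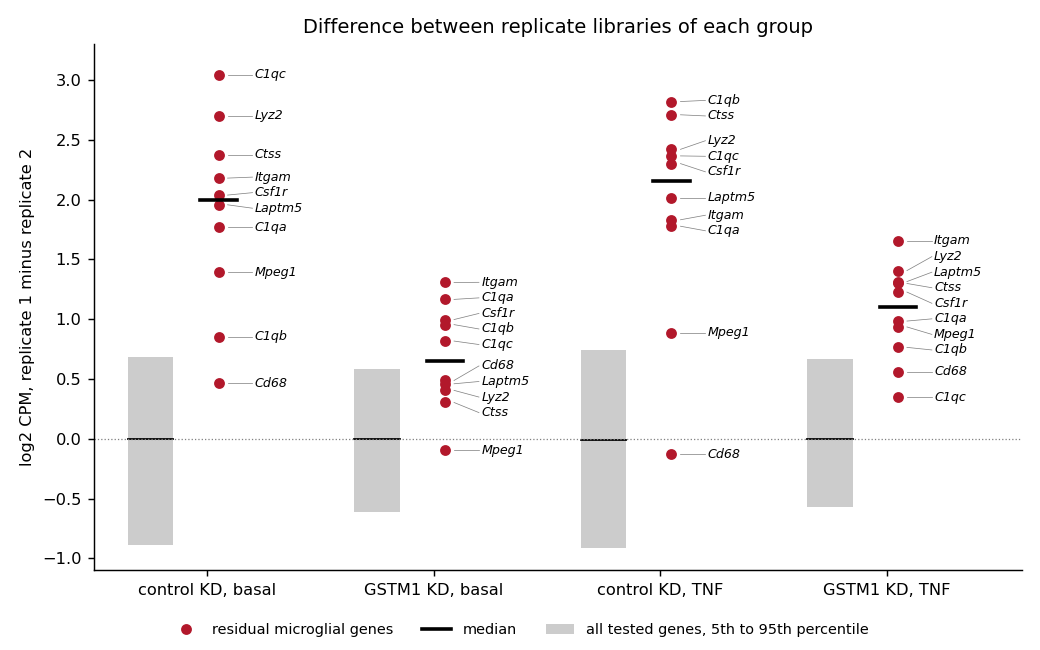
Difference in log2 CPM between replicate 1 and replicate 2 of each group for the 10 genes (points, with their median as a bar) beside the 5th to 95th percentile of the 15332 tested genes (grey). In control KD 8 of the 10 points of either state lie above a 2-fold difference, and in GSTM1 KD 2 and 5 do.

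The control KD replicate 1 libraries were set apart by other cell markers too. Of 30 pan-myeloid and leukocyte genes, 19 were highest in these 2 libraries. Among the 19 of the list that passed the filter on low counts, 13 were, against 17.7% of all tested genes. A sufficient level in 2 libraries is enough for that filter, so genes such as Ptprc and Trem2 could pass through these libraries alone. The share of 13 among 19 is therefore a description and not independent support. Genes highest there included Trem2 (47 and 29 counts against 0 to 6 in the others) and Ptprc, which encodes CD45 (26 and 15 against 1 to 6). Tyrobp (19 and 18 against 0 to 7) and Fcer1g (28 and 14 against 1 to 8) were others. The summed level of the pan-myeloid list ran from 39.6 to 81.4 CPM and was made up largely of genes that are not restricted to macrophages, such as Cyba at 20.4 to 33.7 CPM. Genes characteristic of resting microglia were low: P2ry12 had 0 to 2 counts a library, Cx3cr1 0 to 9 and Tmem119 4 to 34, and of these Tmem119 was highest in control KD replicate 2 at the basal level. Of the 14 genes on that list, Fcrls and Gpr34 were highest in both control KD replicate 1 libraries, but only by library scaling. Fcrls had 31 and 9 counts against 0 to 9 in the others, and Gpr34 4 and 2 against 0 to 2. Of the 6 on the list that passed the filter, 0 were highest there, against 17.7% of all tested genes. Of 15 genes of activated microglia, 2 were highest there and 5 lowest (Apoe, Lpl, Cd9, Ctsb and Ctsd). Of 12 cathepsins, 0 were highest and 4 lowest. Aif1, which encodes Iba1 and is made by macrophages in general, had 0 to 4 counts. Of 9 genes of border-associated macrophages, Pf4 (16 and 14 counts against 0 to 2 in the others) and Folr2 were highest in the control KD replicate 1 libraries, while Ms4a7 had 0 to 15, Mrc1 0 to 9 and Cd163 0 to 1 counts a library. At these counts the kind of macrophage the transcripts came from could not be told.

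Astrocyte markers ran the other way. Of 12, 8 were lowest in the 2 control KD replicate 1 libraries (17.2% of all tested genes were), among them Gfap, Aqp4, Slc1a3 and Aldh1l1. Their summed level was 3200 and 3262 CPM in the control KD replicate 1 libraries and 6323 to 9343 CPM in the other 6. The part of culture composition in the differences below was not tested.

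**Figure D3:**
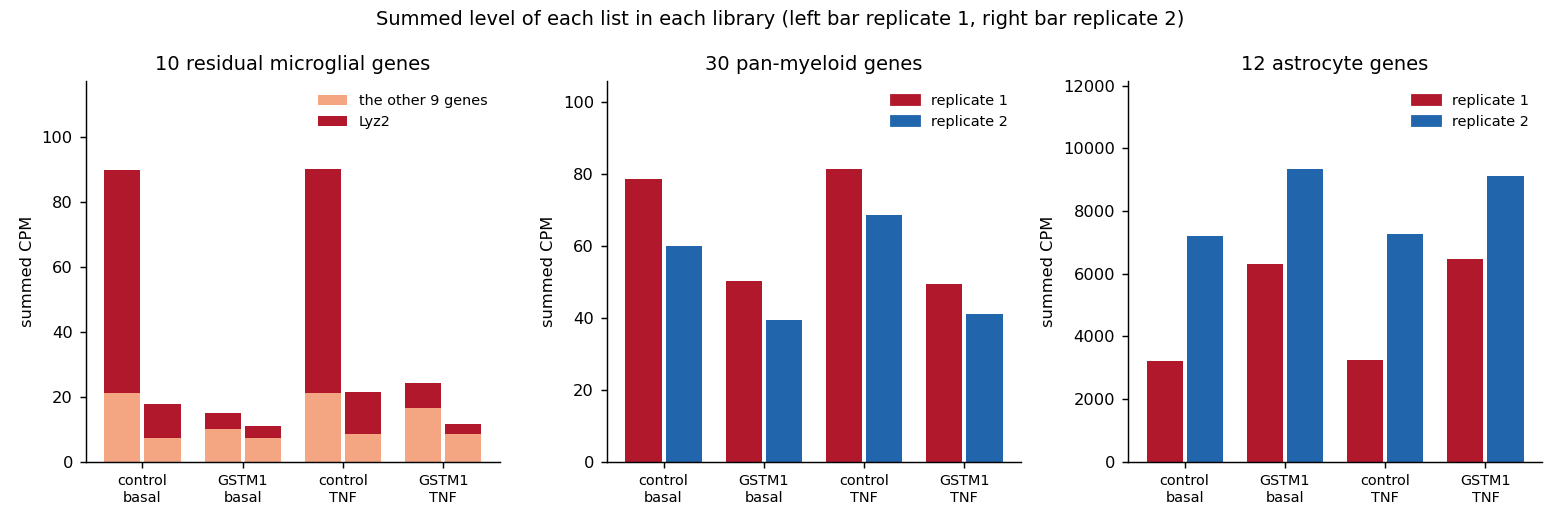
Summed CPM in each library of the 10 residual microglial genes, split into Lyz2 and the rest, of 30 pan-myeloid genes and of 12 astrocyte genes, with replicate 1 as the left bar and replicate 2 as the right bar of each group. The control KD replicate 1 bars are the highest for the residual genes, at 90.0 and 90.3 CPM, and the lowest for the astrocyte genes, at 3200 and 3262 CPM.

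The first question was whether the knockdown of GSTM1 went with a different level of these transcripts. Lyz2 was the clearest case. Unstimulated control KD libraries held 68.7 and 10.5 CPM of it, and unstimulated GSTM1 KD libraries 4.93 and 3.70 CPM, from 2432, 269, 115 and 74 counts. After TNF-α stimulation it had 69.2 and 12.9 CPM in control KD against 7.76 and 2.87 CPM in GSTM1 KD. The groups did not overlap in either state, and the lower control KD library was 2.13-fold above the higher GSTM1 KD library before stimulation and 1.66-fold above it afterwards. In edgeR's quasi-likelihood test the log2 fold change of Lyz2 was -3.20 ± 0.87 (SE, n = 2 against 2) at the basal level, with an adjusted p of 0.0737, and -2.96 ± 0.87 after TNF-α, with an adjusted p of 0.0722. Neither passed the threshold of 0.05 in this fit. With a term for the replicate number added to the edgeR fit (a replicate block), both did (adjusted p = 5.56e-05 and 0.000576). At the basal level DESeq2 gave Lyz2 an adjusted p of 0.0380. Without control KD replicate 1 the log2 fold change was -1.28 with an adjusted p of 0.0170, and without control KD replicate 2 it was -3.99 with an adjusted p of 1.41e-05. After TNF-α the corresponding edgeR values were -1.27 with an adjusted p of 0.106 and -3.69 with an adjusted p of 0.000683. Lyz2 also set the composition of the sum, of which it made 76.4% and 59.4% in unstimulated control KD but 32.9% and 33.8% in unstimulated GSTM1 KD.

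At the basal level 9 of the 10 genes passed the filter on low counts, and 0 of the 9 passed the edgeR threshold, where 10.2% of 14899 genes did (5.62% lower and 4.6% higher in GSTM1 KD). The number at an unadjusted p under 0.05 was 1, which was Lyz2, and DESeq2 called Lyz2 alone among the 5 to which it gave an adjusted p, where it called 18.5% of all genes. The median log2 fold change of the 9 was -0.94, against 0.00 over all genes tested. Its size depended on the libraries: the median log2 CPM difference of the 10 was -1.53 between the replicate 1 libraries and -0.30 between the replicate 2 libraries. With a replicate block, 4 of the 9 passed, Laptm5, C1qa, Ctss and Lyz2, all lower in GSTM1 KD, where 31.6% of all genes passed and 15.9% were lower. Without control KD replicate 2, 7 of the 10 passed, namely Itgam, Csf1r, Laptm5, C1qa, C1qc, Ctss and Lyz2, all lower in GSTM1 KD, where 34.2% of all genes passed and 17% were lower. Without control KD replicate 1 only Lyz2 did, where 14.3% of all genes passed. In the fit with 1 library left in an arm, that library is taken to vary like the others.

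Itgam, the target of the depletion itself, reached 61 and 8 counts in unstimulated control KD libraries but 3 and 0 in those of GSTM1 KD. Both GSTM1 KD libraries were at or under the floor, so its mean was at least 7.30-fold lower there, with the floor averaged over the 2 libraries. Control KD replicate 1 carried this limit, since control KD replicate 2 alone was 2.24-fold above the same floor. The gene was left out of the edgeR test by the filter. After TNF-α it had 35 and 6 counts against 8 and 1, and the groups overlapped. Its partner Itgb2 had 50 and 14 against 7 and 6 counts without stimulation, then 36 and 6 against 19 and 9 with it.

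The growth factor receptor and the lysosomal genes did not pass in the edgeR fit above without the block, with all 4 libraries. Csf1r lies at chr18:61100598-61132149, and its expected counts without stimulation were 54.9 and 8 for control KD against 15.6 and 5.90 for GSTM1 KD. Its log2 fold change was -0.94 ± 0.82 with all 4 libraries, 0.67 without control KD replicate 1 and -1.63 (edgeR adjusted p = 0.0480) without control KD replicate 2. Laptm5 had 84 and 14 counts against 12 and 7, with non-overlapping CPM. Its log2 fold change was -1.76 ± 0.77, -0.32 without control KD replicate 1 and -2.44 (adjusted p = 0.00406) without control KD replicate 2. Ctss had 99 and 12 counts against 12 and 8. Its log2 fold change was -1.85 ± 0.87, -0.03 without control KD replicate 1 and -2.60 (adjusted p = 0.00222) without control KD replicate 2. Cd68 had 4.24 and 3.05 CPM against 3.47 and 2.45 CPM, with a log2 fold change of -0.30 ± 0.32, an edgeR adjusted p of 0.557 and values of -0.038 and -0.52 without control KD replicates 1 and 2, neither of them called.

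Without stimulation C1qa had 78 and 15 counts for control KD against 13 and 4 for GSTM1 KD, and its groups did not overlap. C1qb had 35 and 13 against 20 and 8, and C1qc 68 and 4 against 18 and 8, and both overlapped. Their log2 fold changes were -1.87 ± 0.80, -0.26 ± 0.55 and -0.86 ± 1.02, and without control KD replicate 1 they were -0.59, 0.33 and 1.89. In counts this low the chains could not be told to differ from one another. Of the other complement genes on a list of 9, C3 alone passed a knockdown comparison, 0.75 ± 0.13 higher on the log2 scale in GSTM1 KD at the basal level (edgeR adjusted p = 0.0282). The C1 proteases showed log2 differences of 1.01 ± 0.26 for C1ra (adjusted p = 0.0668) and -0.03 ± 0.20 for C1s1 (adjusted p = 0.931). C3ar1, the C3a receptor of myeloid cells, had 121 and 22 counts against 11 and 3.

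Counting genes whose CPM did not overlap between the knockdowns, 3 of the 9 tested (Laptm5, C1qa and Lyz2) were lower in GSTM1 KD at the basal level, where 31.2% of all tested genes were lower and 32.3% higher in this way. The share among the 9 was close to that background in this unpaired count. Compared within a replicate number at the basal level, 8 of the 10 genes were lower in GSTM1 KD in both pairs, as were 38.0% of all genes.

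**Figure D4:**
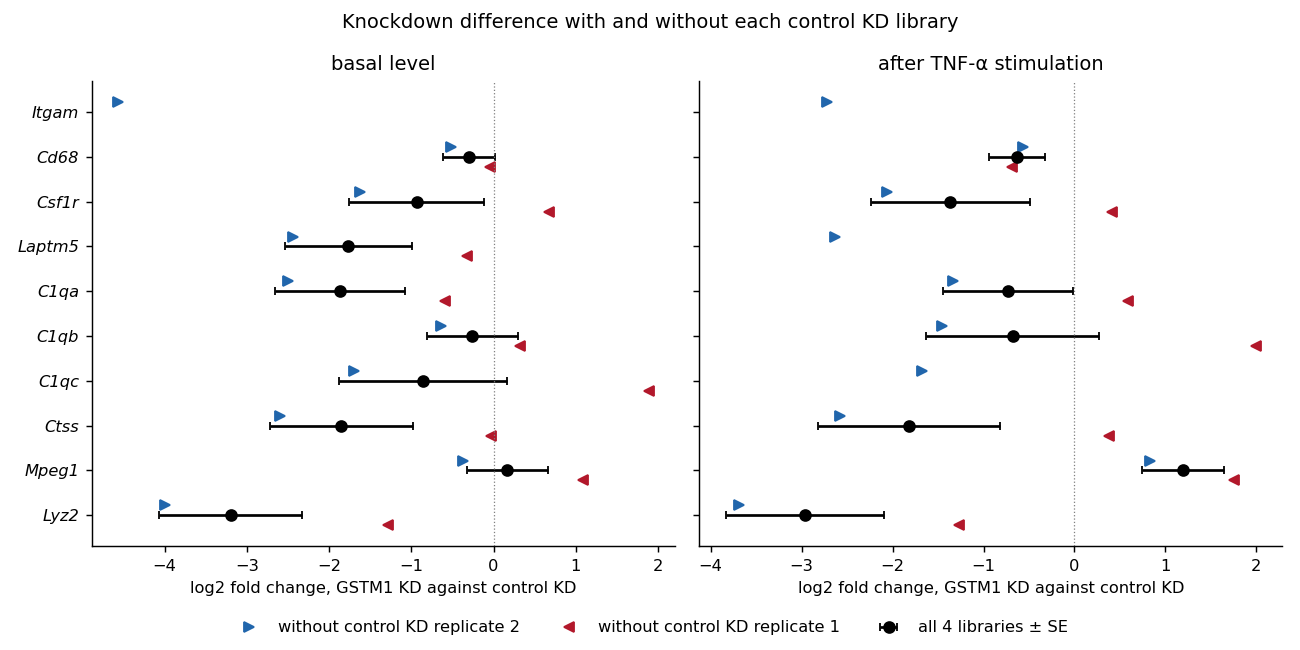
Log2 fold change of GSTM1 KD against control KD for each gene without and with TNF-α, with all 4 libraries of the state (black, ± SE) and without 1 control KD library (triangles); Itgam, and after TNF-α also Laptm5 and C1qc, did not pass the filter in some fits and lack those points. Without control KD replicate 1 the values move to the right, except Cd68 after TNF-α, and Lyz2 is the gene farthest below 0 in either state, at -1.28 and -1.27.

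After TNF-α stimulation 7 of the genes passed the filter, and 0 of the 7 passed the threshold of edgeR, where 16.2% of 14593 genes did. The number at an unadjusted p under 0.05 was 2, Lyz2 and Mpeg1, and DESeq2 called 0 of the 6 to which it gave an adjusted p, where it called 20.8% of all genes. The median log2 fold change of the 7 was -0.73, against -0.01 over all genes. For all 10 the median log2 CPM difference was -1.40 between the replicate 1 libraries and -0.45 between the replicate 2 libraries. With a replicate block, 3 of the 7 passed, Ctss and Lyz2 lower and Mpeg1 higher, where 29.5% of all genes did. Without control KD replicate 2, 5 passed, Itgam, Csf1r, Laptm5, Ctss and Lyz2, all lower in GSTM1 KD, where 32.9% of all genes passed and 16.2% were lower. Without control KD replicate 1 only Mpeg1 passed, where 18.3% of all genes did. Csf1r had 63.3 and 8.17 expected counts against 20.4 and 5.81, and Ctss 66 and 6 counts against 15 and 4. The log2 fold changes were -1.36 ± 0.87 for Csf1r and -1.82 ± 1.00 for Ctss, and they turned to 0.42 and 0.38 without control KD replicate 1. Laptm5 had 40 and 6 counts against 9 and 2, C1qa 48 and 9 against 24 and 9, C1qb 32 and 2 against 14 and 6, and C1qc 30 and 3 against 10 and 6. Cd68 had 3.79 and 4.15 CPM against 3.09 and 2.07 CPM without overlap, with a log2 fold change of -0.63 ± 0.31 and an adjusted p of 0.199. With Cd68 and Lyz2, 2 of the 7 were lower without overlap, where 31.9% of genes were.

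Of the 7 genes tested after TNF-α, Mpeg1 was the only one with a positive log2 fold change. Unstimulated control KD libraries held 3.42 and 1.25 CPM of it against 2.57 and 2.75 CPM for GSTM1 KD, and these groups overlapped. After TNF-α it had 3.75 and 1.98 CPM in control KD against 8.86 and 4.59 CPM in GSTM1 KD, so that both GSTM1 KD libraries were above both control KD libraries, as in 34.7% of tested genes. The log2 fold change after TNF-α was 1.19 ± 0.45 higher in GSTM1 KD with an edgeR adjusted p of 0.124, and it was 1.75 with an adjusted p of 0.0443 without control KD replicate 1, but 0.65 with an adjusted p of 0.488 without GSTM1 KD replicate 1. Across the 8 libraries its log2 CPM had a Pearson correlation of 0.18 with the mean of the other genes, where Ctss had 0.97, Csf1r 0.96, C1qa 0.93 and Lyz2 0.88. Without the 2 control KD replicate 1 libraries these were 0.14, 0.83, 0.92, 0.72 and 0.32. These correlations are a description over libraries that differ in depth, replicate 1 being the deeper of each pair. Among the rest, Cd68 had 0.62 and 0.35, C1qb 0.71 and 0.31, and C1qc 0.81 and 0.26, so that over the 6 libraries Mpeg1 had the lowest value and C1qc the next.

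The second question was whether the transcripts changed with TNF-α. In control KD 0 of the 10 passed in edgeR, 0 had an unadjusted p under 0.05 and DESeq2 called 0, where 2.63% of 15332 genes passed in edgeR and 4.28% in DESeq2. The adjusted p-values of the 10 ran from 0.906 to 0.999. Lyz2 had 68.7 and 10.5 CPM before and 69.2 and 12.9 CPM after stimulation, and the sum of all 10 went from 90.0 and 17.7 to 90.3 and 21.4 CPM. No gene of the 10 was without overlap between the states in control KD, where 16.2% of all genes were higher and 18.3% lower in this way. In GSTM1 KD 0 of the 10 passed in edgeR and in DESeq2, where 2.65% of genes passed in edgeR and 3.75% in DESeq2, and 1 had an unadjusted p under 0.05. That gene was Mpeg1, with 2.57 and 2.75 CPM before and 8.86 and 4.59 CPM after, a log2 fold change of 1.34 ± 0.54 and an adjusted p of 0.409. It was also the only one of the 10 that was higher without overlap, against 22.4% of genes (22.2% were lower). The difference between the TNF-α responses of the knockdowns was 1.05 for Mpeg1 (edgeR adjusted p = 1.00), and 0 of the 10 and 0.0% of all genes passed, with 0 of the 10 at an unadjusted p under 0.05 and 0 called by DESeq2, which called 0.156% of all genes.

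Of the ligands of Csf1r, Csf1 was at a far higher level than the receptor, with 207 to 1201 TPM a library against 0.12 to 1.07 TPM for Csf1r, and Il34 had 3.73 to 10.9 TPM. Csf1 stood at 787 and 497 CPM in unstimulated control KD against 448 and 417 CPM in GSTM1 KD, and with TNF-α at 2490 and 2493 against 1603 and 1488 CPM. It rose with TNF-α by 1.96 ± 0.20 on the log2 scale in control KD (edgeR adjusted p = 0.00517) and by 1.84 ± 0.20 in GSTM1 KD (adjusted p = 0.00483). Under TNF-α the GSTM1 KD libraries held less of it (log2 fold change -0.71 ± 0.13, adjusted p = 0.0251), and without TNF-α the value of -0.57 ± 0.23 did not pass (adjusted p = 0.157). Il34, the other ligand, had 2.19 to 7.52 CPM and rose with TNF-α in GSTM1 KD by 1.53 ± 0.28 (adjusted p = 0.0384). In control KD its value was 0.86 ± 0.28 (adjusted p = 0.228), and the difference between these responses did not pass (0.68 ± 0.39, adjusted p = 1.00). Of the 5 genes on this list of survival signals, Csf1, Csf2 and Cx3cl1 rose with TNF-α in both knockdowns, where 2.63% and 2.65% of all genes passed in either direction, while the receptor Csf1r had 0.93 ± 0.88 CPM (SD, n = 2) before and 1.60 ± 1.58 CPM after in control KD.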

How the data were processed

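The authors sequenced 8 libraries as 100-base paired-end reads with a directional kit, aligned them with STAR 2.5.4b to GRCm38 and quantified them with RSEM 1.3.0, as their methods and processing notes state. The deposited tables give, per gene and library, the expected count, which RSEM estimates and which need not be whole, and TPM, which the authors' tool scales by effective length. Expected counts were rounded and tested with edgeR 4.0.16 (R 4.3.3, quasi-likelihood, TMM factors, filterByExpr by group), with Benjamini-Hochberg adjustment over all genes tested and a threshold of 0.05. Knockdown comparisons used the 4 libraries of a state, and TNF-α responses and their difference used all 8. log2 CPM used a prior count of 2. The SE given with an edgeR fold change is the absolute log2 fold change divided by the square root of the test's F statistic. It is an approximation and not a value that edgeR reports. DESeq2 1.42.0 was an alternative. With 2 libraries against 2, the smallest two-sided exact permutation p is 0.333, so no exact test was made.

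The 10 genes and the other gene lists were chosen with earlier results of these data known. Beside the 10, the rule named genes of each list that passed a knockdown comparison, set markers, ligands and complement genes, and the 10 genes most correlated with the mean of the group. Of the genes that passed, those on the lists of other cell types and 1 further gene are not reported here. The scripts were tested on simulated data. Replicates were not copies of one library, since their counts differed by a chi-square of 12.8 to 50.9 per gene. FPKM values, which the authors' RSEM run also deposited, were not used. No genome sequence was used beyond the promoter table and the annotated transcripts.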

Additional observations from a re-analysis of the deposited data

How the results depend on the processing

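Between the knockdowns, the number of the 10 genes past the threshold in edgeR was 0 in either state and stayed 0 with DESeq2's size factors, with library size alone and with all 8 libraries in the fit. At the basal level it was 1 with DESeq2, 5 without the filter on low counts (Itgam, Laptm5, C1qa, Ctss and Lyz2, where 16.0% of all genes passed) and 0 to 7 with a library left out, where 0.00643% to 34.2% of all genes passed. After TNF-α it was 6 without the filter (Itgam, Csf1r, Laptm5, Ctss, Mpeg1 and Lyz2, where 18.8% passed) and 0 to 5 with a library left out, where 0% to 32.9% passed. The cause was not tested. For the TNF-α response in GSTM1 KD it was 1 without the filter (Mpeg1, where 3.97% passed). The difference in mean log2 summed level after TNF-α was -0.17 without Lyz2 and ran from -2.43 to -0.36 with a library left out, and from -2.81 to -0.46 at the basal level.

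The labels do not say what a replicate number marks. The deviations of the libraries from their group means correlated by 0.165 to 0.575 across genes between groups. With a replicate block, 4 of 9 genes passed at the basal level, Laptm5, C1qa, Ctss and Lyz2, all lower in GSTM1 KD, where 15.9% of all genes were lower and 31.6% passed. The log2 fold change of Lyz2 was then -2.80 at the basal level (adjusted p = 5.56e-05) and -2.80 after TNF-α (adjusted p = 0.000576). Compared within a replicate number, 8 of the 10 genes were lower in GSTM1 KD in both pairs at the basal level, as were 38.0% of all genes, and 7 of 10 after TNF-α, as were 36.6%. After TNF-α the block gave 3 of 7, Ctss and Lyz2 lower and Mpeg1 higher, where 29.5% passed. It gave 0 for the responses to TNF-α and for their difference. Under the block the log2 response to TNF-α turned sign for C1qb in control KD (-0.093) and for Ctss in GSTM1 KD (-0.086), as did the difference in response for Ctss (-0.044). For Ctss in control KD it was 0.0019 when only 4 libraries were fitted.

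Log2 fold changes that turned sign when a library was left out were the following, with their lowest and highest values. They include a fit, added after the data were seen, without control KD replicate 1 of both states, which gave -2.03 for C1qb and 0.20 for C1qc for TNF-α in control KD and 1.69 for C1qb in the difference. For the knockdown at the basal level these were Csf1r (-1.65 to 0.67), C1qb (-0.91 to 0.33), C1qc (-1.69 to 1.89) and Mpeg1 (-0.37 to 1.08). For the knockdown after TNF-α they were Csf1r (-2.25 to 0.42), C1qa (-1.38 to 0.59), C1qb (-1.46 to 2.00) and Ctss (-2.82 to 0.38). For TNF-α in control KD all 10 did: Itgam (-1.53 to 1.62), Cd68 (-0.087 to 0.44), Csf1r (-0.996 to 2.38), Laptm5 (-2.04 to 0.98), C1qa (-1.39 to 1.19), C1qb (-2.61 to 0.87), C1qc (-2.55 to 2.27), Ctss (-2.20 to 1.81), Mpeg1 (-0.26 to 1.21) and Lyz2 (-1.63 to 1.97). For TNF-α in GSTM1 KD they were Itgam (-0.24 to 5.39), Cd68 (-0.52 to 0.084), Csf1r (-0.53 to 1.10), C1qb (-0.88 to 0.33), C1qc (-0.91 to 0.025), Ctss (-0.99 to 0.59) and Lyz2 (-0.59 to 0.84). For the difference in response they were Itgam (-0.13 to 5.49), Csf1r (-2.01 to 1.37), Laptm5 (-1.62 to 1.39), C1qa (-0.11 to 2.48), C1qb (-1.20 to 2.28), C1qc (-2.81 to 2.01), Ctss (-1.76 to 2.25) and Lyz2 (-1.66 to 1.95). None of these had passed the threshold. Itgam, Laptm5, C1qb and C1qc had 3 counts or fewer in at least 1 library, but Cd68, with 36 or more in each, and Lyz2, with 50 or more, turned sign too. The part of depth in these turns was not tested.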

Other observations

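Of the 30 pan-myeloid genes, 12 were tested between the knockdowns in edgeR. At the basal level 1 passed, lower in GSTM1 KD, where 10.2% of all genes passed. After TNF-α 4 passed, all lower, where 16.2% of all genes passed, and 1 of these is not reported here. Unc93b1, a chaperone of endosomal Toll-like receptors, was lower in GSTM1 KD at the basal level (log2 fold change -1.48 ± 0.32, edgeR adjusted p = 0.0457) and after TNF-α (-1.26 ± 0.27, adjusted p = 0.0366). After TNF-α, Cyba (-0.67 ± 0.12, adjusted p = 0.0251) and Irf8 (-2.35 ± 0.47, adjusted p = 0.0309) were lower too. Of the genes named, Irf8 was among the 19 myeloid genes highest in the control KD replicate 1 libraries, and Unc93b1 and Cyba were not. Icam1, a ligand of the CD11b receptor, fell from 1176 and 744 counts in unstimulated control KD libraries to 355 and 253 in those of GSTM1 KD (log2 fold change -1.16 ± 0.16, edgeR adjusted p = 0.0218), and after TNF-α its log2 fold change was -1.22 ± 0.16 (adjusted p = 0.0152). Of 15 genes of activated microglia, which astrocytes and other cells also make, 12 were tested. At the basal level 1 was lower and 0 higher in GSTM1 KD, where 10.2% of all genes passed, and after TNF-α 3 were lower and 0 higher, where 16.2% passed. Axl was lower in both states (-1.41 ± 0.12, adjusted p = 0.0132, and -1.27 ± 0.12, adjusted p = 0.0105), and after TNF-α so were Gpnmb (-1.37 ± 0.23, adjusted p = 0.0234) and Ctsz (-0.55 ± 0.11, adjusted p = 0.0344). The median log2 fold change of the 12 was 0.053 unstimulated and 0.088 with TNF-α, and among them Lpl (1.10 ± 0.33, adjusted p = 0.0786) and Ctsb (0.47 ± 0.12, adjusted p = 0.0588) had positive values after TNF-α that did not pass. Of the survival signals, Cx3cl1 was higher in GSTM1 KD at the basal level (0.71 ± 0.12, adjusted p = 0.0285), and Csf2 was lower after TNF-α, at 94 and 68 counts against 14 and 8 (-2.87 ± 0.35, adjusted p = 0.0129). Sall1, the only gene of the resting microglia list to pass, was higher after TNF-α (0.47 ± 0.11, adjusted p = 0.0459) with 1107 or more counts in every library.

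The genes whose log2 CPM followed the mean of the 10 most closely over the 8 libraries, among 13371 with a mean of at least 1 CPM, were Mthfd2, Clpp, Aimp1, Ints11, Rpl22, Mgme1, Hyi, Thap3, Crct1 and Nars, with Pearson correlations of 0.978 to 0.991. Mthfd2, a mitochondrial folate enzyme, had 43.4 and 44.6 CPM in the control KD replicate 1 libraries and 17.1 to 28.9 CPM in the other 6. None of the marker lists had a gene among the 100 closest. The minimum of 1 CPM left only 8 of 30 pan-myeloid, 5 of 14 resting microglia and 0 of 9 border-associated macrophage genes as candidates. Most macrophage markers, Trem2 and Ptprc among them, could therefore not appear, and their absence says nothing about how they followed the 10. The median correlation was 0.65 for 8 pan-myeloid genes, -0.86 for 11 astrocyte genes and 0.01 over all candidates, and all of these rest on the same 8 libraries.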
